A study of Mus musculus with 12 samples.

Results

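The enzymes that make, conjugate and oxidize glutathione, and the peroxide and superoxide scavengers that work beside them, were followed in the fallopian tubes of young mice. Members were taken by gene symbol: the glutathione S-transferases of the alpha, kappa, mu, omega, pi, theta and zeta classes, the microsomal transferases, the glutathione peroxidases, peroxiredoxins, thioredoxins with their reductases and related domain genes, the superoxide dismutases, catalase, Nqo1, the heme oxygenases, sulfiredoxin and the enzymes of glutathione synthesis. The array annotation holds 65 such symbols on 96 probes. Of these, 55 genes on 81 probes had values, out of 11229 genes with values. The other 10 (Gpx5, Gpx6, Gsta1, Gstm3, Gstt4, Txndc16, Txndc17, Txndc2, Txndc8 and Txnl1) were blank on all arrays and were not analysed here. Glutathione reductase (Gsr), which regenerates glutathione, is not among the 65 symbols, so that step was not measured.

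Tubes came from 6 female mice, 3 wildtype C57BL6 and 3 mogp-TAg transgenic mice whose background is also given as C57BL6, with 1 mouse of each genotype aged 7 weeks, 1 aged 8 weeks and 1 aged 9 weeks. The mogp-TAg transgene drives the large T antigen of SV40, a viral oncoprotein that inactivates p53 and the retinoblastoma family, under control of the oviductal glycoprotein promoter, whose activity lies in secretory cells of the tube. The comparison asks how transgenic tubes, presented in the series title as a model of serous carcinoma, differ from wildtype tubes. Total RNA of each mouse was measured on 2 one-colour Illumina BeadChip arrays, and the mouse, with its arrays averaged, was the replicate. The viral transgene was not analysed here.

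Glutathione is a tripeptide that carries a reactive thiol. Glutathione S-transferases join it to electrophilic compounds, and glutathione peroxidases use it to reduce hydrogen peroxide and lipid peroxides. Peroxiredoxins do the same with electrons from thioredoxin, while superoxide dismutases make the peroxide that both systems and catalase then remove. Many of these genes are known targets of the transcription factor NRF2 (gene Nfe2l2), which binds the antioxidant response element. In the tube, the epithelium consists of ciliated and secretory cells over a stroma and a coat of smooth muscle.

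Transgenic tubes had lower signals for a share of the detoxifying transferases and scavengers, and higher signals for few. By limma on the 6 mouse means, 12 of the 55 genes were lower: Gstm1, Gstm2, Gstm5, Gstm6, Gstp1, Gstt1, Gstt3, Gstz1, Gpx3, Sod2, Sod3 and Txndc5. Another 3 were higher, namely Gstp2, Gpx7 and Prdx4. The lower genes made up 21.8% of the members, where 12.5% of all genes were lower, and the higher genes 5.45%, where 10.4% of all genes were higher. In either direction 27.3% of the members passed, close to the 22.9% of all genes. The median difference over the 55 genes was -0.20 on the log2 scale, beside -0.02 over all genes. A negative difference was found in 41 members, whereas 52.4% of all genes had one. In 25 members all 3 transgenic mice lay below every wildtype mouse, a separation seen in 22.3% of all genes, and in 4 members they lay above, as in 18.9% of all genes. A gene is called here where its p, adjusted by Benjamini-Hochberg for the 16664 probes tested, is below 0.05, and 29 members had an unadjusted p below 0.05.

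**Figure D1:**
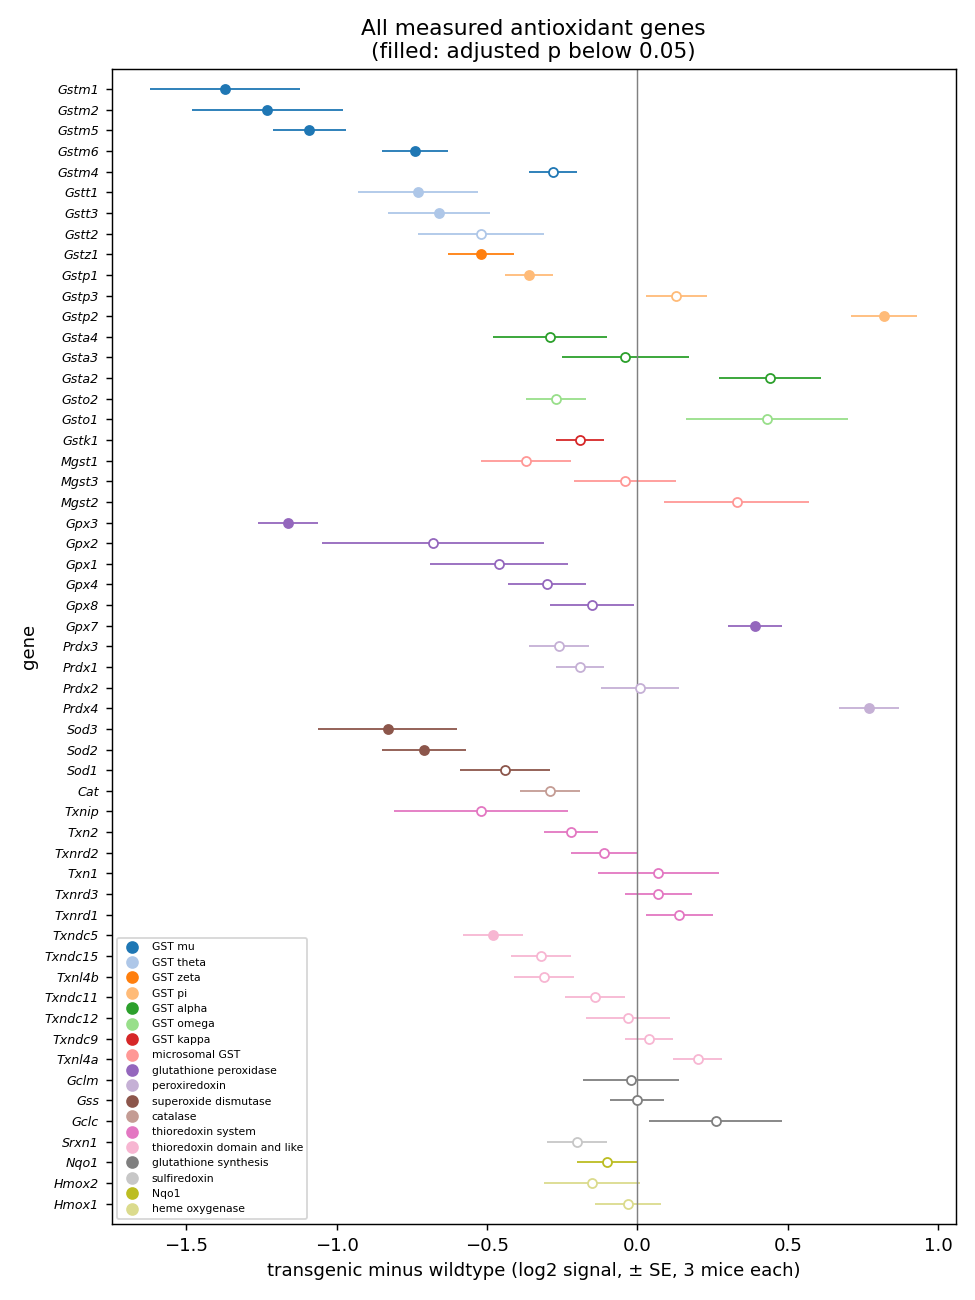
Difference between transgenic and wildtype tubes for each of the 55 genes (log2 signal, points with SE, 3 mice each), grouped by enzyme family and filled where the limma adjusted p is below 0.05. The mu class runs from -1.37 in Gstm1 to -0.28 in Gstm4, and the pi class holds both a lower gene (Gstp1) and the gene with the highest difference of all members (Gstp2, 0.82).

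The RNA is of whole tubes, in which fewer cells of a type and less RNA per cell cannot be told apart. Markers of several cell types moved with the genotype. For comparison, 12.5% of all genes were lower, 10.4% were higher and 22.9% were called in either direction. Of 25 measured ciliated cell markers 22 were lower in transgenic tubes, with a summed signal of 9580 to 12076 against 27513 to 34506 in wildtype tubes. Of 17 smooth muscle markers 11 were lower, with sums of 52083 to 64197 against 77911 to 86935. Mesothelial markers were lower in 8 of 10 genes (sums of 4231 to 4874 against 8334 to 10594) and endothelial markers in 5 of 14 (6008 to 8068 against 9255 to 10441). Adipocyte markers were lower in 3 of 13 (3838 to 6507 against 6699 to 8550), a share of 23.1% where 12.5% of all genes were lower. Some of these markers differed by repeat. Adipoq, named after its values were seen, differed by -2.66 on the repeat 1 arrays and 0.00 on the repeat 2 arrays (limma adjusted p of the repeat difference 0.00268), and Car3, likewise, by -2.13 and -0.05 (0.0221). Macrophage and myeloid markers were higher in 6 of 17 genes and lower in 2, with sums of 18299 to 33032 against 15805 to 16473. Secretory cell markers were higher in 4 of 17 genes and lower in 4 (58788 to 76998 against 52830 to 65007), and all 21 measured cell division genes were higher (27935 to 41921 against 4756 to 6804). Erythroid markers passed in 0 of 4 genes, of which 2 lay near the array floor in both genotypes. Ovary markers passed in 0 of 12, of which 9 lay near it. Of the 13 adipocyte markers 6 were near the floor in both genotypes. So were the smooth muscle markers Cnn1, which was called lower, and Synpo2. The same holds for the endothelial Cdh5 and Kdr, the myeloid Fcgr1 and the cell division gene Ccna2. The ciliated markers Spag16 and Mcidas were also near the floor in both genotypes. The part of these cell types in the differences of the antioxidant genes was not tested.

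The mu class of glutathione S-transferases held the largest decreases among the members, with 4 of 5 measured genes lower. Gstm1, a cytosolic detoxifying transferase, had normalized signals of 3493, 1865 and 2348 in the transgenic mice of 7, 8 and 9 weeks and of 7651, 4912 and 7045 in the wildtype mice. Every transgenic mouse was below every wildtype mouse, and the mean was 2.59-fold lower (log2 difference -1.37 ± 0.25, SE; limma adjusted p = 0.00924). Gstm2 read 13161, 6630 and 8077 in the transgenic mice and 25476, 18162 and 19642 in the wildtype mice. It fell 2.34-fold (-1.23 ± 0.25, limma adjusted p = 0.014), and its other 2 probes fell too, by 1.15 and by 1.64 on the log2 scale. The 7-week mouse was the highest of its genotype in both groups, and the groups did not overlap.

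Gstm5 varied little among wildtype mice. Its signals were 796, 597.3 and 719.2 in transgenic tubes against 1467, 1458 and 1540 in wildtype tubes, a 2.13-fold decrease (-1.09 ± 0.12, limma adjusted p = 0.001). Gstm6, a dimmer gene, gave 163.2, 129.3 and 157.9 against 240.9, 240.6 and 266, a 1.67-fold decrease (-0.74 ± 0.11, limma adjusted p = 0.00415). Its transgenic mean lay near the array floor, below a signal of 152, where background makes up much of the reading and folds are understated. Gstm4 separated the genotypes without passing (-0.28 ± 0.08, limma adjusted p = 0.0531). It was called when the arrays were fitted singly with the repeat number as a block.

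The mu genes are neighbours on mouse chromosome 3, in the order Gstm5, Gstm7, Gstm6, Gstm3, Gstm2, Gstm1, Gstm4 with no other coding gene between them in the RefSeq gene table. Such copies are alike in sequence, so a probe may take up RNA of a neighbour, and the split of signal between them is uncertain. Second probes of Gstm1 and Gstm6 lay near the floor in both genotypes and were not called (0.01 and -0.26). Of the mu calls, only that of Gstm2 depended on a single mouse: its limma adjusted p was 0.0513 without the 8-week transgenic mouse and 0.0507 without the 9-week one.

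The promoters of Gstm2 and Gstm5 are shown because these genes of the same stretch, which are not adjacent, fell together, while the letters before their start sites differ. Each window runs from 250 bases before to 50 after the RefSeq start of the gene (GRCm38.p6), at chr3:107986371-107986670, minus strand, and chr3:107895604-107895903, plus strand. Capitals mark the core of the antioxidant response element, TGACNNNGC, or the AP-1 motif TGACTCA, on either strand.
Gstm2: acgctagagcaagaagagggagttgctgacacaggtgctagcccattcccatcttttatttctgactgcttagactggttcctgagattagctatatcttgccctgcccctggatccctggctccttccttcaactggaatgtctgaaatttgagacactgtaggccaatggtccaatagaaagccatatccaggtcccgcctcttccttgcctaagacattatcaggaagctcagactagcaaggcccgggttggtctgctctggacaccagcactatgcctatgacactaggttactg
Gstm5: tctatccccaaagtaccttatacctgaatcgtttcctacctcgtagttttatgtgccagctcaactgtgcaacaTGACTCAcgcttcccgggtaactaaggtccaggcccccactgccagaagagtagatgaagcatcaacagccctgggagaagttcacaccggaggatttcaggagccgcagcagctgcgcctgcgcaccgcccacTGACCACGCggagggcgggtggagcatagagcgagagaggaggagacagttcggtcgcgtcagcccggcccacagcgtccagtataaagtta
The Gstm2 window holds neither motif. In Gstm5 the core TGACCACGC begins at position -42 relative to the start site and TGACTCA lies further upstream. Aligned over 252 bases, the pair shared 170, or 56.7% of the window. That is close to the 59.7% of Gstp1 and Gstm2, transferases of different classes. Gstp1 and Srxn1, of different families, shared 62.3%.

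In the theta class, whose members act on small halogenated compounds, 2 of 3 genes were lower. Gstt1 had signals of 336, 259.7 and 286.6 in transgenic mice and 510.3, 358.6 and 618.7 in wildtype mice. It fell 1.65-fold without overlap (-0.73 ± 0.20, limma adjusted p = 0.0404). Gstt3 read 1328, 957.2 and 1100 against 1696, 1492 and 2186, a 1.58-fold decrease (-0.66 ± 0.17, limma adjusted p = 0.033), while Gstt2 missed the threshold at -0.52 ± 0.21 (limma adjusted p = 0.131). Gstz1, the zeta class enzyme that isomerizes maleylacetoacetate in tyrosine breakdown, read 881.7, 695.3 and 727.8 against 1159, 1110 and 1022. It was 1.43-fold lower (-0.52 ± 0.11, limma adjusted p = 0.0171). The Gstt1 and Gstt3 calls were each lost without any 1 of 4 mice: the 8- or 9-week transgenic mouse, or the 7- or 9-week wildtype mouse. Their limma adjusted p then reached at most 0.146 and 0.123. The Gstz1 call was lost without the 7-week wildtype, the 8-week transgenic or the 9-week transgenic mouse, with a limma adjusted p of at most 0.076.

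The pi class moved in both directions. Gstp1, the major pi transferase, had signals of 2301, 2325 and 2335 in transgenic mice and 2843, 2888 and 3234 in wildtype mice. The groups did not overlap, and the decrease was 1.29-fold (-0.36 ± 0.08, limma adjusted p = 0.0222). A second Gstp1 probe fell by 0.55 (limma adjusted p = 0.0184), and the remaining probe, near the floor, differed by -0.10. Gstp2 read 420, 491.3 and 424.6 in the transgenic mice against 270.2, 224.9 and 263.3 in the wildtype mice. That was 1.76-fold higher without overlap (0.82 ± 0.11, limma adjusted p = 0.00239). Gstp3, near the floor in both genotypes, did not pass (0.13 ± 0.10, limma adjusted p = 0.394).

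Gstp1, Gstp2 and Gstp3 lie side by side on chromosome 19, and the transcripts of these copies resemble each other, so signal may again be shared between their probes. The promoters of Gstp1 (chr19:4037863-4038162, minus strand) and Gstp2 (chr19:4042172-4042471, minus strand) are shown because the genes moved apart although the windows share most of their aligned bases.
Gstp1: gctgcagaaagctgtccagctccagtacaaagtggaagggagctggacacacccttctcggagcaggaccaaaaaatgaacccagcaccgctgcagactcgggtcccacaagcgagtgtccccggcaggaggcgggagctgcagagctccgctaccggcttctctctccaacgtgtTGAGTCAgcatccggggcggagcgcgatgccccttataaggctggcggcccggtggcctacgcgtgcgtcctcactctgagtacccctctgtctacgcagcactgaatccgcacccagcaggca
Gstp2: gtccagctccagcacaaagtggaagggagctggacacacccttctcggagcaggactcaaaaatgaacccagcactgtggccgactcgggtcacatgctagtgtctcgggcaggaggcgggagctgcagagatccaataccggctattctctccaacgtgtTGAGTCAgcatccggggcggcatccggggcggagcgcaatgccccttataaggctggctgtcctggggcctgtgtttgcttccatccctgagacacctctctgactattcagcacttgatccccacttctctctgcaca
Of 281 aligned bases 246 were identical, which is 82% of the window. Both hold 1 AP-1 motif, in capitals as TGAGTCA on the strand shown, and neither holds the exact letters TGACNNNGC on either strand. Variants of that core, including any that overlap the AP-1 motif, were not looked for. These windows may therefore hold other forms of the antioxidant response element. The Gstp1 call was lost without the 8-week transgenic, the 9-week transgenic or the 9-week wildtype mouse (limma adjusted p of 0.0844, 0.0532 and 0.072), on either repeat alone, with the mean of its probes, and with a robust prior.

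No gene of the alpha, omega, kappa or microsomal groups passed by its chosen probe. In the alpha class Gsta3 had the highest signal, 1191, 923.6 and 931 in transgenic mice and 1430, 823.3 and 936.7 in wildtype mice, with the genotypes overlapping (-0.04 ± 0.21, 95% interval -0.53 to 0.46). Gsto1, an omega transferase that reduces dehydroascorbate, read 13396, 12441 and 11152 against 14343, 6431 and 8296. The 7-week wildtype mouse was the highest of all 6, and without it the difference was 0.75 (limma adjusted p = 0.0211), compared with 0.43 ± 0.27 in all mice (limma adjusted p = 0.302). Gstk1, the kappa transferase of mitochondria and peroxisomes, gave 560.3, 568.6 and 562.2 against 642, 614.8 and 680.2. These groups did not overlap, yet the gene did not pass (-0.19 ± 0.08, limma adjusted p = 0.124).

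Mgst1, a membrane-bound transferase with peroxidase activity, had probes that differed in call. Its brighter probe read 3137, 3170 and 2439 in transgenic mice against 3248, 3576 and 4489 in wildtype mice (-0.37 ± 0.15, limma adjusted p = 0.135). Its second probe fell 0.60 (SE 0.16, limma adjusted p = 0.0339). Both differences have the same sign, and the groups of the brighter probe were separate by a narrow margin.

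**Figure D2:**
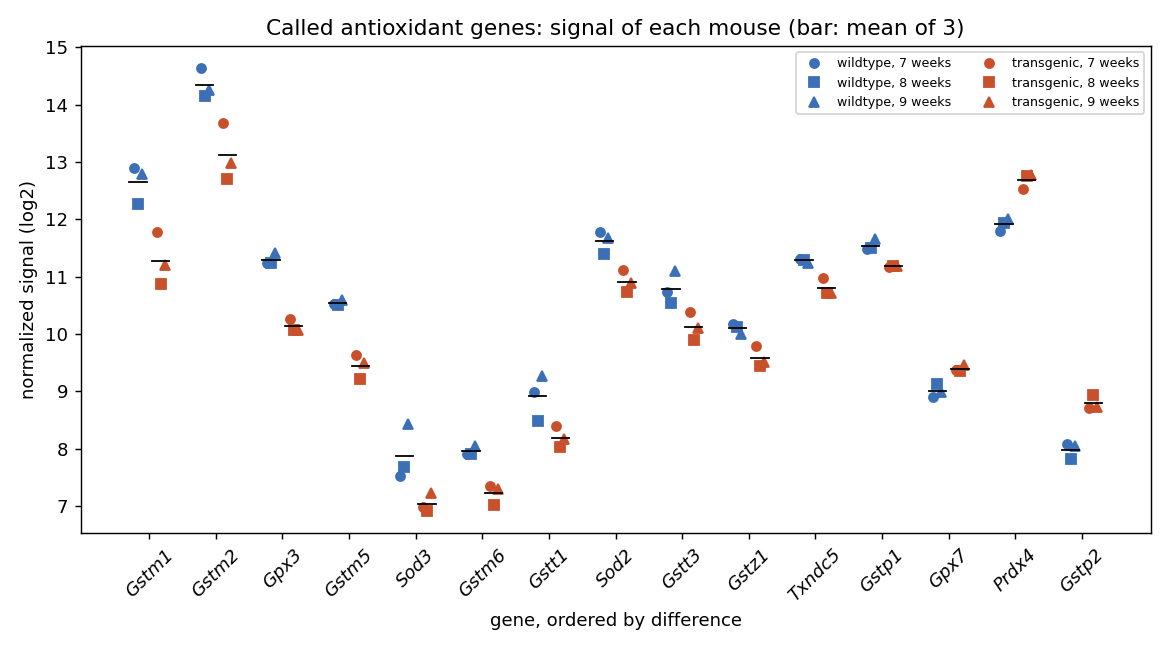
Normalized log2 signal of each of the 6 mice for the 15 genes that passed the genotype test, with wildtype in blue, transgenic in orange-red, the age as the symbol and a bar at the mean of 3 mice. The genotypes do not overlap in any of the 15. Levels of different genes come from different probes and are not comparable with each other.

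Among the 6 measured glutathione peroxidases 1 fell and 1 rose. Gpx3, the secreted selenoprotein found in plasma and extracellular fluid, had the lowest adjusted p of all members. Its signals were 1226, 1076 and 1075 in transgenic mice and 2401, 2408 and 2728 in wildtype mice. The genotypes were far apart relative to their spread, and the decrease was 2.23-fold (-1.16 ± 0.10, limma adjusted p = 0.00046). Gpx7, a peroxidase of the endoplasmic reticulum, rose 1.31-fold, with 658.7, 655 and 706.5 against 479.1, 561.2 and 506.7 (0.39 ± 0.09, limma adjusted p = 0.0234). Leaving out any of the 7-week wildtype, 9-week wildtype, 8-week transgenic or 9-week transgenic mouse took the limma adjusted p of Gpx7 to between 0.0666 and 0.0793, and the repeat 1 arrays alone took it to 0.304.

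Gpx1, the cytosolic selenoprotein, did not pass: it read 9366, 9743 and 9508 in transgenic mice and 10677, 19682 and 10830 in wildtype mice (-0.46 ± 0.23, limma adjusted p = 0.19). The 8-week wildtype mouse stood well above the other wildtype mice. Gpx8, the other peroxidase of the endoplasmic reticulum, overlapped between genotypes (-0.15 ± 0.14, limma adjusted p = 0.5), as did the phospholipid peroxidase Gpx4 (-0.30 ± 0.13, limma adjusted p = 0.144).

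Of the 3 superoxide dismutases, the mitochondrial and the extracellular enzymes were lower. Sod2, the manganese enzyme of mitochondria, read 2231, 1692 and 1885 in transgenic mice and 3518, 2681 and 3272 in wildtype mice. All transgenic values lay below all wildtype values, and the decrease was 1.63-fold (-0.71 ± 0.14, limma adjusted p = 0.0128). Sod3, the secreted copper-zinc enzyme, gave 126.6, 121 and 149.2 against 183.3, 204.4 and 342.9, a 1.78-fold decrease (-0.83 ± 0.23, limma adjusted p = 0.0394). Its transgenic mean was near the floor, so this fold is understated, and the 9-week wildtype mouse was the highest.

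Sod1, the cytosolic enzyme, gave 4777, 4243 and 3756 in transgenic mice against 5956, 4696 and 6754 in wildtype mice. The 7-week transgenic mouse overlapped the 8-week wildtype mouse, and Sod1 did not pass (-0.44 ± 0.15, limma adjusted p = 0.0842). With the repeat number as a block its limma adjusted p was 0.0303, and without the 8-week wildtype mouse it was 0.0265 (difference -0.58). Catalase, the peroxisomal enzyme that splits hydrogen peroxide, read 273.5, 275.6 and 317.7 against 371.5, 365.4 and 324.7, separate but not called (-0.29 ± 0.10, limma adjusted p = 0.0766). The Sod2 call was lost without the 8-week transgenic mouse (limma adjusted p = 0.057), and that of Sod3 without any 1 of the transgenic mice or the 8-week wildtype mouse (0.0501 to 0.138).

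Of the 4 peroxiredoxins measured, Prdx4 alone passed. Prdx4, the peroxiredoxin of the endoplasmic reticulum that couples peroxide to disulfide formation, rose 1.71-fold, from 3562, 3922 and 4091 in wildtype mice to 5885, 6924 and 6986 in transgenic mice (0.77 ± 0.10, limma adjusted p = 0.00244). The lowest transgenic mouse stood well above the highest wildtype mouse. Prdx1, the abundant cytosolic enzyme, read 8952, 8649 and 8816 against 10235, 10365 and 9521. It was lower in every transgenic mouse without passing (-0.19 ± 0.08, limma adjusted p = 0.132). Prdx2 had almost the same mean in both genotypes (0.01 ± 0.13, 95% interval -0.29 to 0.31), and the mitochondrial Prdx3 did not pass (-0.26 ± 0.10, limma adjusted p = 0.0955). Srxn1, sulfiredoxin, which repairs overoxidized peroxiredoxins, read 272.4, 321.8 and 311.1 against 330.8, 341 and 365.1 (-0.20 ± 0.10, limma adjusted p = 0.184).

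None of the 6 genes of the thioredoxin system proper was called by limma. Txnip, which binds and inhibits thioredoxin, had the highest signal of them. It read 4288, 2841 and 2507 in transgenic mice and 5388, 2985 and 5582 in wildtype mice, overlapping (-0.52 ± 0.29, limma adjusted p = 0.242). Without the 8-week wildtype mouse the difference was -0.81 (limma adjusted p = 0.0487). The cytosolic thioredoxin Txn1 differed by 0.07 (95% interval -0.39 to 0.54), and its reductase Txnrd1 by 0.14 (-0.12 to 0.39). The mitochondrial pair Txn2 and Txnrd2 differed by -0.22 and -0.11. Of the 7 genes with thioredoxin domains or thioredoxin-like names, 1 passed. This was Txndc5, a protein disulfide isomerase of the endoplasmic reticulum, with 2018, 1672 and 1678 in transgenic mice against 2543, 2512 and 2423 in wildtype mice. It fell 1.40-fold (-0.48 ± 0.10, limma adjusted p = 0.0138), a call lost without the 8-week transgenic mouse (0.067). Txndc15, known from human Meckel syndrome as a gene needed for cilia, read 2543, 2384 and 2716 against 3518, 3048 and 2999. It was separate but not called (-0.32 ± 0.10, limma adjusted p = 0.0562), and its limma adjusted p with the repeat block was 0.0457.

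The enzymes that make glutathione did not pass. Gclm, the modifier subunit of glutamate-cysteine ligase, read 518.8, 452 and 400.1 in transgenic mice and 529, 367.7 and 507.9 in wildtype mice, a difference of -0.02 ± 0.16 (95% interval -0.41 to 0.36). The catalytic subunit Gclc differed by 0.26 ± 0.22 (-0.26 to 0.78) and glutathione synthetase, Gss, by -0.00 ± 0.09 (-0.20 to 0.20). Nqo1, a quinone reductase often used as a readout of NRF2, gave 171.7, 209.2 and 198.3 against 203.8, 209.7 and 204.7 (-0.10 ± 0.10, 95% interval -0.32 to 0.13). Hmox2, the constitutive heme oxygenase, read 492, 544.8 and 696.7 against 527.8, 689.5 and 698.5 (-0.15 ± 0.16, limma adjusted p = 0.563). Hmox1, the inducible form, lay near the floor in both genotypes (-0.03 ± 0.11). In each of these 6 genes the genotypes overlapped.

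The antioxidant response element core was looked for in the promoter windows of the 49 members that have a RefSeq entry. TGACNNNGC, on either strand, was found in 10 of them (20.4%) and in 14% of all 27025 genes with a window. It was present in 2 of 11 lower members (Gstm5 and Txndc5), 0 of 3 higher members and 8 of 35 members that were not called: Gclm, Gsta3, Mgst1, Prdx1, Sod1, Srxn1, Txndc11 and Txnrd1. TGACTCA, which can overlap the core, was found in 6 members (12.2%) and in 5.95% of all genes. The windows of Prdx1 (chr4:116685349-116685648, plus strand) and Srxn1 (chr2:152105274-152105573, plus strand) are printed as examples that hold both motifs in genes that did not pass.
Prdx1: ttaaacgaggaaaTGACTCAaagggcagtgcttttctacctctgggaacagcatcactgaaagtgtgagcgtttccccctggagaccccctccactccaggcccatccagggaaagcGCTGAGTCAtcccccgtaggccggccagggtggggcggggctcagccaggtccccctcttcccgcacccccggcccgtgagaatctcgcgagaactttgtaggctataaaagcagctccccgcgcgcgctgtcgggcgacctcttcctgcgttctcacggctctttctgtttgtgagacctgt
Srxn1: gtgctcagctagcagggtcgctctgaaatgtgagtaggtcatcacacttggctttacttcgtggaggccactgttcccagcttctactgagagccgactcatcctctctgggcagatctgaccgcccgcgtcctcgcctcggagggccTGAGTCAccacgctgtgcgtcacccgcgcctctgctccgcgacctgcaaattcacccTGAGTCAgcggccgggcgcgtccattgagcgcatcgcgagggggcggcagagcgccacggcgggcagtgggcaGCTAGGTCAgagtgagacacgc
In Prdx1 the core reads GCTGAGTCA on the strand shown, at position -133, and includes an AP-1 motif. In Srxn1 it reads GCTAGGTCA and lies at position 29, after the start, with 2 AP-1 motifs upstream. A match is a stretch of letters and says nothing of binding. Only the exact letters TGACNNNGC were searched, so the counts leave out variants of the core, and a window without a match may hold one. Bases beyond 250 before or 50 after the start were not searched, so a gene without a match may have the core elsewhere.

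The regulators of the NRF2 pathway passed at about the rate of all genes (25% and 22.9%), with 1 of 12 measured genes higher, 2 lower and a median difference of -0.01. Nfe2l1, a relative of NRF2 that governs proteasome genes, read 1675, 1561 and 1418 in transgenic mice and 2347, 2308 and 2632 in wildtype mice, a 1.57-fold decrease (-0.65 ± 0.10, limma adjusted p = 0.00427). Bach1, a repressor at antioxidant response elements, fell 1.71-fold, from 251.7, 271.1 and 350.6 in wildtype mice to 182.8, 161.5 and 161.2 (-0.78 ± 0.14, limma adjusted p = 0.00757). The Bach1 difference was -1.48 on the repeat 1 arrays (limma adjusted p = 0.00307) and -0.07 on the repeat 2 arrays (0.896), so the call rests on repeat 1, although the difference between repeats did not pass (limma adjusted p = 0.286). Cul3, the ubiquitin ligase scaffold that works with KEAP1, rose 1.25-fold (0.32 ± 0.08, limma adjusted p = 0.0317), a call lost without any 1 of 4 mice and on either repeat alone. Nfe2l2 itself and Keap1, named after their values were seen, did not pass: Nfe2l2 read 448.4, 506.2 and 440 against 480.5, 404.5 and 456.4 (0.06 ± 0.10, limma adjusted p = 0.73), and Keap1 differed by 0.13 ± 0.09 (limma adjusted p = 0.36).

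Genes that break down, export or use glutathione were higher in 1 and lower in 6 of 30 measured, with a median of -0.16, and the 23.3% called is about the 22.9% of all genes. Anpep, an aminopeptidase that can cleave the cysteinylglycine left by glutathione breakdown, rose 2.04-fold, from 335.8, 471.3 and 444.4 in wildtype mice to 854, 666 and 1046 (1.03 ± 0.19, limma adjusted p = 0.00968), a call lost on the repeat 1 arrays alone (0.104). Abcc5, an ATP-driven exporter of organic anions, fell 1.77-fold (-0.82 ± 0.12, limma adjusted p = 0.00302), and the chloride channel protein Clic3 fell 1.51-fold (-0.60 ± 0.10, limma adjusted p = 0.00532), with its transgenic mean near the floor. Ggt5, Glo1, Ptges and Ggct were the other lower genes. Without the 8-week transgenic mouse the list had 2 lower genes, and without either 9-week mouse 3.

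Glutaredoxins, methionine sulfoxide reductases and related selenoproteins were lower in 4 of 15 and higher in 0, with a median of -0.25. That is 26.7% called, beside 22.9% of all genes in either direction and 12.5% lower. Selenom, a selenoprotein of the endoplasmic reticulum with a thioredoxin-like fold, read 318.4, 262.5 and 283.3 in transgenic mice and 706.2, 626.3 and 686.6 in wildtype mice. It fell 2.34-fold without overlap (-1.23 ± 0.10, limma adjusted p = 0.000449). Glrx2, the mitochondrial glutaredoxin, fell 1.62-fold, with 216.3, 187.5 and 233.1 against 321.8, 345.2 and 362.2 (-0.70 ± 0.11, limma adjusted p = 0.00416). Selenok and Msrb1, both selenoproteins, were the other lower genes. Of the 11 measured genes that supply NADPH, the reductant for glutathione and thioredoxin reductases, Mthfd2 was higher (0.62 ± 0.18, limma adjusted p = 0.0434) and Pgls lower (-0.64 ± 0.17, limma adjusted p = 0.0339), each call being lost without most single mice and on 1 of the repeats alone. The median of that list was 0.03 and 18.2% of it was called.

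The next comparison asked whether the distance between the genotypes depended on age over 7 to 9 weeks. With age in weeks as a number, limma called 0 of 55 members, as it called 0% of all genes, and 3 members had an unadjusted p below 0.05. Each of the 15 called genes differed in the same direction at all 3 ages. That was fixed once the genotypes did not overlap in any of them, so it adds no evidence. A single age rests on 1 mouse of each genotype. Gpx3 differed by -0.97, -1.16 and -1.34 at 7, 8 and 9 weeks, and Gstm1 by -1.13, -1.40 and -1.59. Gstp2 differed by 0.64, 1.13 and 0.69, so its largest difference was at 8 weeks.

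The lowest p of the interaction belonged to Gpx2, the glutathione peroxidase best known from gut epithelium. Its signals at 7, 8 and 9 weeks were 529.3, 440.6 and 325.9 in transgenic mice and 450.9, 549.3 and 1264 in wildtype mice. The difference went from 0.23 to -1.96, with the 9-week wildtype mouse far above the rest, but did not pass (-1.09 ± 0.19 a week, limma adjusted p = 0.755). Mgst1 changed by -0.41 ± 0.12 a week and Txn1 by 0.40 ± 0.13 a week, neither passing (limma adjusted p = 0.755 for both). Txn1 read 626.4, 694.9 and 1109 in transgenic mice and 737.6, 751 and 745.6 in wildtype mice, so its 9-week transgenic mouse stood apart.

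**Figure D3:**
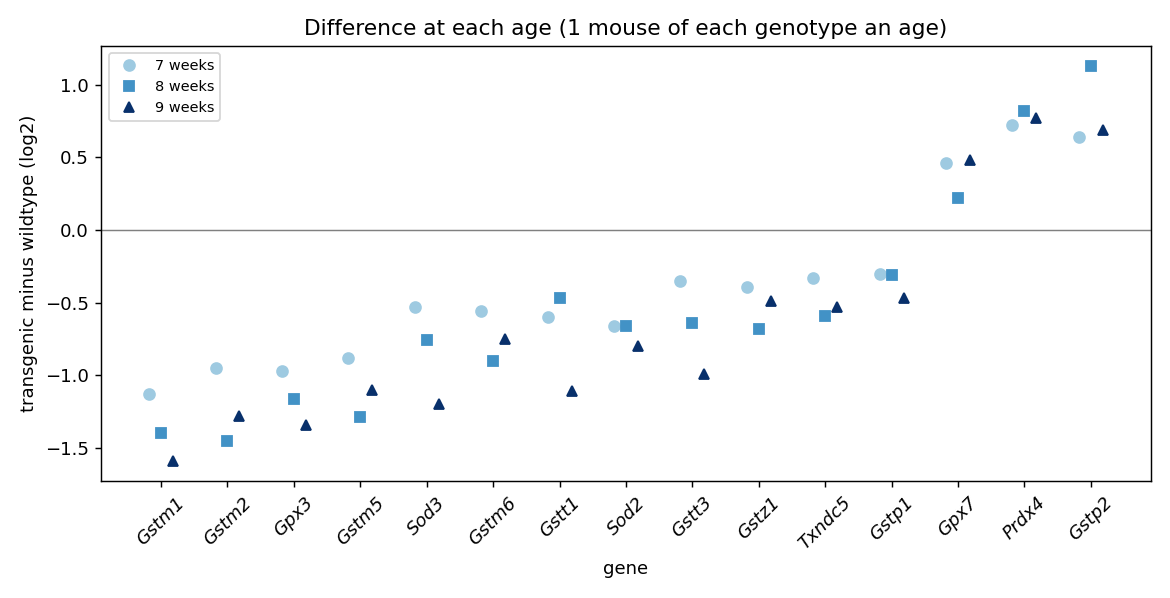
Transgenic minus wildtype difference (log2 signal) at 7, 8 and 9 weeks for the 15 genes that passed the genotype test, where each point is 1 mouse of each genotype and carries no test. All 3 points of a gene lie on one side of 0, as they must where the genotypes do not overlap. The interaction with age was called for 0 of the 15.

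A trend with age shared by both genotypes was also not called for any member by limma (0 of 55, with 0% of all genes called and 5 members at an unadjusted p below 0.05). Mgst3, a microsomal transferase that also makes leukotriene C4, had the lowest p. It read 811.2, 1099 and 1193 in transgenic mice and 890.5, 1070 and 1218 in wildtype mice at 7, 8 and 9 weeks, a slope of 0.25 ± 0.05 a week (limma adjusted p = 0.49). Hmox2 had a slope of 0.23 ± 0.06 (limma adjusted p = 0.574) and Sod3 of 0.29 ± 0.10 (limma adjusted p = 0.619). With 1 mouse of each genotype an age, these fits had 2 residual degrees of freedom for the interaction and 3 for the trend.

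The last comparison set the repeats of each mouse against each other. Whether the genotype difference itself depended on the repeat was called by limma for 0 of 55 members (0.0178% of all genes), and 5 had an unadjusted p below 0.05. The sign of the genotype difference was the same in both repeats in 46 members. Among the called genes the difference was -1.18 on the repeat 1 arrays and -1.13 on the repeat 2 arrays for Gpx3, 0.81 and 0.82 for Gstp2, and 0.24 and 0.53 for Gpx7. On the repeat 1 arrays alone the calls of Gpx7 (limma adjusted p = 0.304), Sod3 (0.0756) and Gstp1 (0.0731) were lost. On the repeat 2 arrays alone those of Gstp1 (0.106), Gstt1 (0.0519), Gstt3 (0.0521), Gstz1 (0.126) and Txndc5 (0.105) were lost.

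Before normalization the repeat 2 array of every mouse was dimmer, with median signals of 136.9 to 189.6 against 245.35 to 331.85 on repeat 1. After quantile normalization the repeats still differed in some genes across all mice. The part of the array brightness in these differences was not tested. Catalase was lower on repeat 2 in every mouse, by 1.11, 0.89 and 0.74 in the transgenic mice and by 0.40, 0.54 and 0.93 in the wildtype mice on the log2 scale. The chosen probe of Txn1 was lower on repeat 2 in all 6 mice as well, with a mean shift of -0.62. The chosen probe of Gpx8 was higher on repeat 2 in all 6 mice, by 0.29 to 0.59. The other Gpx8 probes disagreed with each other, with mean shifts of 0.43 and -0.21. Gpx2 had a mean shift of 0.43, with 0.98, 0.82 and 0.30 in transgenic mice and -0.10, 0.20 and 0.36 in wildtype mice, and its genotype difference by repeat did not pass (0.55 ± 0.19, limma adjusted p = 0.37).

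**Figure D4:**
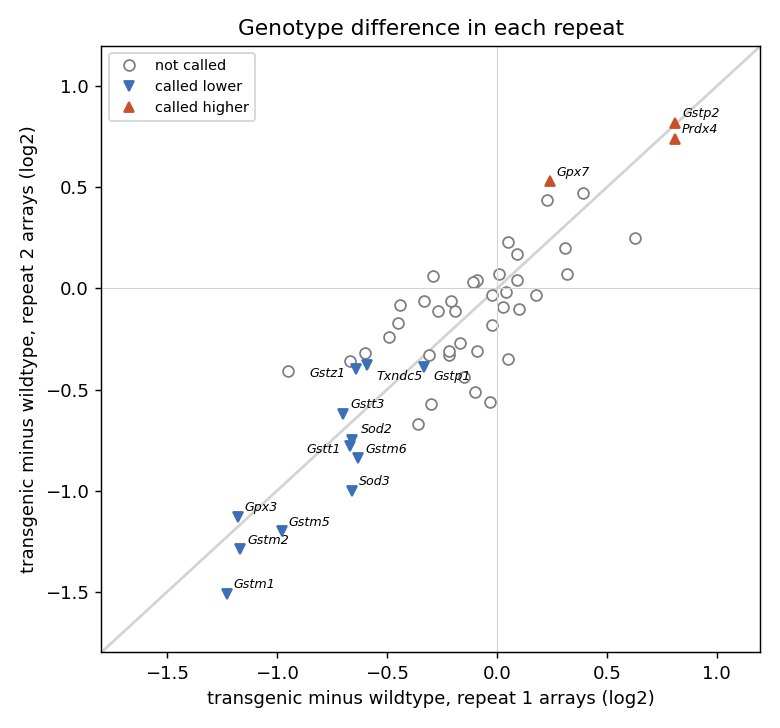
Genotype difference of the 55 genes on the repeat 1 arrays (x axis) and on the repeat 2 arrays (y axis), in log2 units, with the diagonal of equal values. The called genes lie near the diagonal, from Gstm1 (-1.23 and -1.51) to Gstp2 (0.81 and 0.82), and Gpx7 has a larger value on repeat 2.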

How the data were processed

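The fallopian tube RNA of 6 mice was measured on 12 one-colour Illumina arrays, 2 for each mouse. The deposited table holds a score, standardized by the authors within each array, and per the submitters' processing notes the software was GenomeStudio 1.6.0. Its scale was solved from the values: with 1 factor and 1 offset an array, 100% of the values became signals on a grid of 0.1, within 0.01 of that step. Background subtraction is not given in the sources used. The lowest signal of an array lay between 59.1 and 87.8, and the number of arrays limits the precision. A scanner table with 24 columns whose names match no sample was not used.

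Signals were quantile-normalized and put on the log2 scale without background subtraction, so folds of dim genes are understated. The arrays of a mouse were averaged, since the labels name them repeats without stating if both used the same extract. The p-values measure the spread between mice. In the main genotype comparison that spread includes age, since the mice of a genotype differ in age and no age term was fitted. Differences were tested with lmFit and eBayes (limma 3.58.1, R 4.3.3), two-sided, with Benjamini-Hochberg adjustment over 16664 probes. Of these, 15687 have 1 gene symbol and 977 none. A gene was represented by its brightest probe over all arrays. All 55 members with values were tested without a further filter, and 4 were near the floor (a mean within log2 1 of the lowest signal, 75.8) in both genotypes. Of 25697 probes listed, 9033 were blank on all arrays and could not be tested.

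Arrays of the same repeat number deviated together: the correlation of repeat 2 minus repeat 1 over probes was between 0.11 and 0.64 for all pairs of mice. The repeat number, which the titles give, was therefore also fitted as a block, with the mouse as a random block. Other alternatives were the deposited values, median scaling, normexp with an offset of 50, a filter on dim probes, the mean of a gene's probes, age as a block, single repeats, each mouse left out, and eBayes with a trend and robust prior.

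Genes with values for each mouse are those called, the brightest of each family, the lowest p of the age fits, the largest repeat differences, and members whose probes differ in call. In each other list, up to 2 called genes at either end of the differences are named, or the gene of lowest p if no gene was called. The members and lists were chosen with earlier results of these data known. Promoters are from RefSeq (GRCm38.p6) and matched 49 members by symbol; no protein sequence was used. Plots were drawn with matplotlib 3.10.9.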

Additional observations from a re-analysis of the deposited data

How the results depend on the processing

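The count of lower members was 12 with all mice and ranged from 4 to 14 when each mouse was left out, falling to 4 without the 8-week transgenic mouse and to 7 without the 9-week transgenic mouse. It was 7 on the repeat 2 arrays alone; the cause was not tested. The count of higher members ranged from 2 to 3 without single mice. Of the 15 calls, 6 were kept without the 8-week transgenic mouse, 8 without the 9-week transgenic, 11 without the 7-week or the 9-week wildtype, and 14 without either of the other mice. Gpx3, Gstm1, Gstm5, Gstp2 and Prdx4 were called under all 16 alternatives, and Gstm6 under the 15 that tested it. With the repeat number as a block 3 members were higher and 15 lower: all 15 calls were kept, Gstm4, Sod1 and Txndc15 were added, and no other call changed. Median scaling kept all 15 and added Mgst1, Prdx1, Sod1, Txndc15 and Txnl4b. The deposited values kept all 15 and added Prdx1 and Txndc15. Gstp1 was not called with the mean of its probes (limma adjusted p = 0.0504) or with the trend and robust prior (0.0533). The filter on dim probes left Gstm6 and Sod3 untested. No difference of a named member that was called changed sign under any alternative run. The interaction, the age trend and the repeat difference called 0 members under each alternative run for them. Leaving out mice was not run for the interaction, since 1 residual degree of freedom would remain.

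A difference at a single age rests on 1 mouse of each genotype and carries no test, and the interaction fit had 2 residual degrees of freedom. Signals near the floor understate folds, here of Gstm6 and Sod3 among the called genes.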

Other observations

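The list of peroxide and superoxide sources holds NADPH oxidase parts, xanthine dehydrogenase, and oxidases of fatty acids and amines. It was lower in 3 of 12 measured genes and higher in 0, with a median difference of -0.03. That is 25% called, beside 22.9% of all genes in either direction and 12.5% lower. The 3 lower genes are all oxidases of fatty acids or amines. Acox2, the peroxisomal oxidase of branched fatty acids and bile acid precursors, read 555.2, 627.4 and 464.2 in the transgenic mice of 7, 8 and 9 weeks and 1074, 1134 and 1285 in the wildtype mice. It fell 2.13-fold without overlap (-1.09 ± 0.13, limma adjusted p = 0.00153). Aoc3, an amine oxidase of smooth muscle, adipocytes and endothelium that also stands in the smooth muscle marker list, fell 4.65-fold (-2.22 ± 0.34, limma adjusted p = 0.0044). Its signals were 1076, 421 and 422.8 against 2513, 2746 and 2783. Maob, the mitochondrial monoamine oxidase, was the other lower gene. The NADPH oxidase genes Nox1, Nox4 and Noxa1 lay near the floor in both genotypes.

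Metal and heme handling genes were higher in 3 and lower in 1 of 12, where 10.4% of all genes were higher and 12.5% lower. The list includes the metallothioneins Mt1, Mt2 and Mt3, which were not called. Tfrc, the transferrin receptor, rose 2.42-fold, from 295.2, 437.4 and 237.3 in wildtype mice to 582.1, 931.5 and 796.3 (1.27 ± 0.25, limma adjusted p = 0.012). Slc40a1, the iron exporter ferroportin, rose 1.91-fold, from 806, 761.1 and 869.1 to 1837, 1549 and 1306 (0.93 ± 0.13, limma adjusted p = 0.00323), with a difference of 0.53 on the repeat 1 arrays (0.0521) and 1.33 on the repeat 2 arrays (0.000883). The importer and the exporter were thus both higher in every transgenic mouse. Slc11a2, a divalent metal transporter, fell 1.24-fold (-0.32 ± 0.09, limma adjusted p = 0.0446), and the biliverdin reductase Blvrb was the remaining higher gene. Without the 8-week transgenic mouse 1 gene of the list was higher, and the Slc11a2 call depended on several single mice, 0 genes being lower without that mouse, the 7-week wildtype, the 8-week wildtype or the 9-week wildtype mouse.

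Other xenobiotic enzymes were higher in 2 and lower in 4 of 25, which is 24% called beside 22.9% of all genes. The carbonyl reductase Cbr2 rose 2-fold, from 2018, 3367 and 2640 in wildtype mice to 5017, 5241 and 5440 (SE 0.17 on the log2 scale, limma adjusted p = 0.00748). Its relative Cbr3 fell 1.71-fold (-0.77 ± 0.17, limma adjusted p = 0.0191). The sulfotransferase Sult1d1 rose 2.76-fold, from 127.9, 103.9 and 94.57 to 404, 279.3 and 234.9 (1.47 ± 0.21, limma adjusted p = 0.00307), a fold understated because the wildtype mean was near the floor, and the glucuronosyltransferase Ugt1a6a fell 2.34-fold (-1.23 ± 0.21, limma adjusted p = 0.00652). The lower genes numbered 1 without the 7-week wildtype, the 9-week wildtype or the 8-week transgenic mouse, 2 without the 9-week transgenic mouse and 8 without the 7-week transgenic mouse. Selenoprotein synthesis genes passed in 0 of 6 by limma, with the lowest p in Scly (0.31 ± 0.09, limma adjusted p = 0.0516).

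Values of single markers behind the cell type lists were as follows. The axonemal dynein gene Dnaic1 fell 4.2-fold and the ciliated cell cadherin Cdhr3 5.02-fold. The muscle intermediate filament gene Des fell 4.41-fold, and the mesothelial genes Wt1 and Upk3b fell 4.8-fold and 3.94-fold. The myeloid genes Ms4a7 and Lyz2 rose 2.63-fold and 1.96-fold, while Cd163 fell 1.96-fold and Mrc1 was the other lower gene. Among secretory cell markers Slc26a4 rose 4.18-fold and Wfdc2 2.15-fold, while Chad fell 4.1-fold and Cftr 2.69-fold. The folds of Slc26a4, with a wildtype mean near the floor, and of Chad and Cd163, with transgenic means near it, are understated. Top2a and Prc1, which act in chromosome segregation, rose 11.3-fold and 16.7-fold.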
